A study of Mus musculus with 6 samples.

Results

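The renin-angiotensin genes measured here are the substrate angiotensinogen (Agt), the enzymes Ren1, Ace and Enpep, the prorenin receptor Atp6ap2 and the receptors Agtr1a, Agtr1b, Agtr2 and Mas1. They were chosen by name among the non-control probes of an Agilent mouse array, and the 9 genes are represented by 10 of its 55681 probes, with 1 probe for each gene except Mas1, which has 2. The samples were CD1 wild-type mouse cerebella of either sex, pooled and dissociated, from which 50000 cells per sample were taken by magnetic separation, with 3 arrays for each of 2 fractions. The strain and an age of postnatal days 1 to 3 are those of the labels, whereas the methods give days 0 and 1 and name C57BL/6 as the background of wild-type mice. A+/G+ cells are defined by ACSA-2, an epitope on the product of Atp1b2, together with GLAST, the glutamate transporter encoded by Slc1a3. A-/G+ cells are defined by GLAST without ACSA-2. The paper counted rare cells with ACSA-2 and no GLAST as A+/G+, and it describes both fractions as enriched, not as pure. By the methods, A+/G+ cells were taken in 1 step with ACSA-2 beads, whereas the A-/G+ cells were first depleted of cells with ACSA-2, L1CAM, CD45, PSA-NCAM or Ter119 and then selected with GLAST, so that antigen and isolation route cannot be told apart.

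The renin-angiotensin system makes peptide hormones from 1 secreted precursor. Renin cuts angiotensinogen to angiotensin I, angiotensin-converting enzyme trims this to angiotensin II, and aminopeptidases shorten it further. Angiotensin II acts on the receptors encoded by Agtr1a, Agtr1b and Agtr2, whereas Mas1 encodes the receptor for a shorter peptide. In the brain, angiotensinogen is known as an astrocyte product.

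The probes that carry the main differences are shown with their positions on mm9, the build of the array's annotation. The probe of Agt is given whole, and the first 30 bases are given for Enpep, Agtr2 and Atp6ap2, the other members in which every A+/G+ array lay above every A-/G+ array.
Agt, chr8:127083142-127083201, minus strand: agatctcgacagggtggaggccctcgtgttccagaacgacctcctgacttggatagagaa
Enpep, chr3:128972910-128972969, minus strand: gctaagtgttcttcatgggaaagtctttac
Agtr2, chrX:21065564-21065623, plus strand: cttaacacgagtacatctcttacattagag
Atp6ap2, chrX:12193624-12193683, plus strand: gagactagctttgtggaatatagatgcttg
The whole Agt probe has a GC content of 55.0%, compared with 35.0% in each of the other probes. An annotation of mm9 was not used here, so the exon that each probe matches is not given.

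The arrays of the fractions differed in brightness. The upper quartile of the deposited intensity ranged from 332 to 334 over the A+/G+ arrays and from 56.6 (replicate 1) to 251 (replicate 3) over the A-/G+ arrays. The scanner software marked 26476 to 26653 probes per A+/G+ array and 18333 to 24726 per A-/G+ array as well above background. Slide 1 carried all A+/G+ arrays and slide 2 all A-/G+ arrays, so slide and fraction cannot be told apart. Values below are log2 intensities after quantile normalization. Calls required an adjusted p of at most 0.05 (limma, Benjamini-Hochberg over all probes) together with group medians separated 4-fold or more. Such calls numbered 851 toward A+/G+ and 222 toward A-/G+. Scaling the arrays to a common 75th percentile instead gave 604 and 938. Leaving out 1 array gave 394 and 104 (without A+/G+ replicate 1), 340 and 77 (without A+/G+ replicate 2) and 351 and 97 (without A+/G+ replicate 3). For A-/G+ it gave 669 and 142 (without replicate 1), 596 and 169 (without replicate 2) and 1458 and 490 (without replicate 3). Atp1b2 ranged from 12.70 to 12.97 in A+/G+ and from 10.31 to 10.86 in A-/G+. Slc1a3 lay between 13.26 and 13.61 and between 14.00 and 14.92, respectively, and was well above background on all arrays.

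Of the 10 renin-angiotensin probes, 1 was called higher in A+/G+, that of Agt, where 1.53% of all probes were called, and 0 were called higher in A-/G+, where 0.399% of all probes were called. The members with a negative difference had an unadjusted limma p under 0.05 in 0 cases, and the methods' t-test also called 0 of them. Without the limit on size, 2 of 10 probes (Agt and Atp6ap2) had an adjusted p of at most 0.05 and were higher in A+/G+, as were 4.65% of all probes, and 0 of 10 were higher in A-/G+, as were 4.64% of all probes. The median difference over the 10 probes was 0.21 on the log2 scale, compared with -0.04 over all probes. That median includes 4 probes not well above background on any array, so it is not a measured shift of the system. Of the 9 genes, 2 (Agt and Atp6ap2) were well above background on all 6 arrays, 4 (Ace, Enpep, Agtr1a and Agtr2) on some arrays, and 3 (Ren1, Agtr1b and Mas1) on none. Of the 10 probes, 4 were higher on every A+/G+ array than on any A-/G+ array, as were 12.7% of all probes, and 1 of 10, a Mas1 probe at background, was lower, as were 24.3% of all probes.

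**Figure D1:**
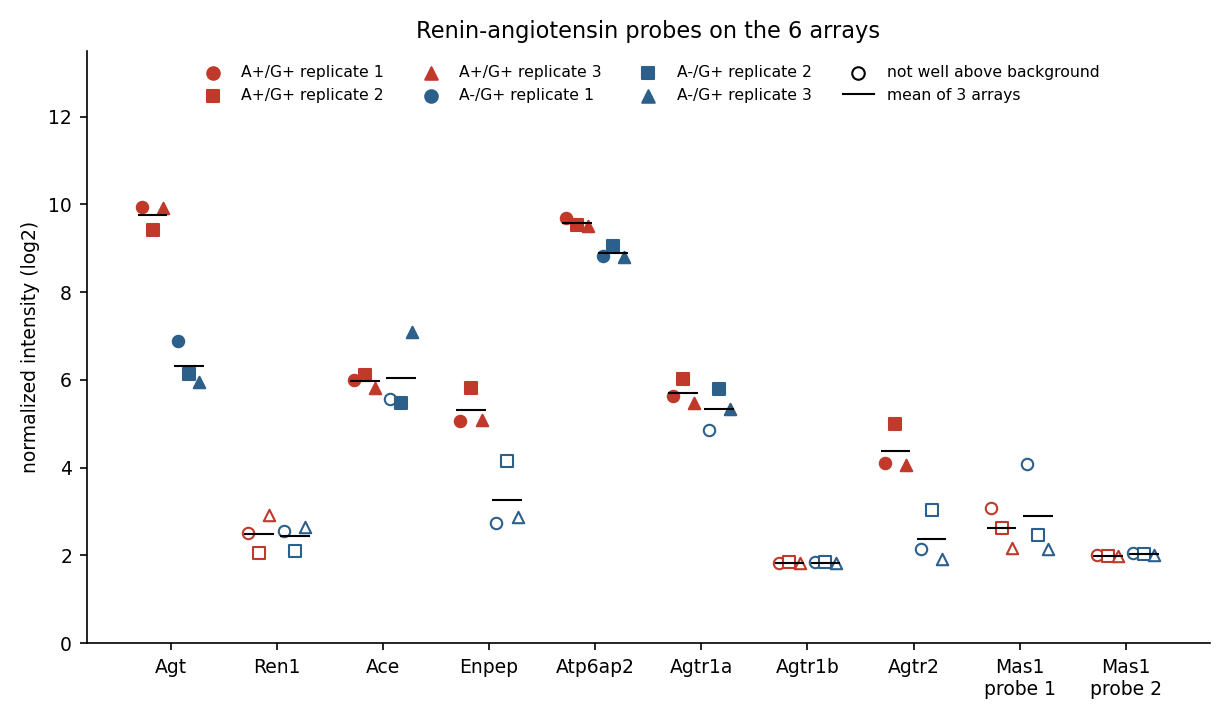
Normalized log2 intensity of the 10 renin-angiotensin probes on the 6 arrays. Each point is 1 array, filled where the probe was well above background and open where it was not, and lines are means of 3 arrays. Agt, Enpep, Atp6ap2 and Agtr2 show no overlap of the fractions, and all points of Ren1, Agtr1b and Mas1 are open.

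Agt, which encodes the precursor of all angiotensins, was measured well above background on every array. In A+/G+ replicates 1, 2 and 3 its normalized log2 intensity was 9.93, 9.41 and 9.91, and in A-/G+ replicates 1, 2 and 3 it was 6.89, 6.14 and 5.94. The fractions did not overlap, and the lowest A+/G+ array stood 2.52 above the highest A-/G+ array. The means differed by 3.42 (standard error 0.31, 95% interval 2.64 to 4.21) and the medians 13.6-fold, with an adjusted p of 0.00817 by limma. An exact permutation test over the 6 arrays gave p = 0.1 (two-sided), and with 3 arrays in each fraction no smaller p is possible. By the difference of medians, Agt stood at place 139 among the 851 probes called higher in A+/G+.

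The difference of Agt was also present before normalization. In A+/G+ the deposited intensity of the probe was 1593, 1187 and 1607, and in A-/G+ it was 34.9, 40.3 and 78.1. The ratio of these means was 28.6, on arrays of which the A-/G+ ones were dimmer as a whole. In the A-/G+ fraction the intensity was highest in replicate 3, the brightest array of that fraction, whereas the normalized value was highest in replicate 1. With the 75th percentile shift the difference was 3.41 (adjusted p = 0.0181 by limma), and in the authors' log2 table it was 3.48 (adjusted p = 0.00760 by limma). Normexp background correction gave a smaller difference of 2.63, with medians 7.08-fold apart (adjusted p = 0.000847 by limma). Leaving out 1 array at a time gave differences of 3.23 to 3.71 with adjusted p-values of 0.0127 to 0.0469 by limma, and Agt stayed called each time.

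Markers of mature astrocytes moved in the same direction as Agt. All 12 had a higher mean in A+/G+, 8 of them with an adjusted p of at most 0.05 by limma, and none fell below the background limit on any array. By adjusted p alone, 4.65% of all probes were higher in A+/G+. The paper had named Agt itself, and Slc6a11 of this list, for A+/G+ cells from these same arrays. By antibody staining of neonatal sections, it also reported AGT protein in A+/G+ cells of the prospective white matter. The log2 of the summed intensity of the mature astrocyte markers was 17.17 to 17.31 in A+/G+ and 15.33 to 16.14 in A-/G+. The part of these cells in the difference of Agt was not tested. In sorted fractions measured in bulk, fewer cells of a type and less RNA per cell cannot be told apart.

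The 5 genes with the array profile most like that of Agt were sought among all probes well above background on every array. Likeness was the root mean square difference of the 6 array values on the log2 scale after each probe's own mean was taken off. They were Paqr7, a membrane progestin receptor, at 0.19, Cebpd, a transcription factor of the C/EBP family, at 0.21, Dbx2, a homeobox factor, at 0.27, Dner, a membrane protein with Delta-like repeats, at 0.28, and Ntsr2, a neurotensin receptor, at 0.29. Paqr7 had normalized log2 intensities of 11.96, 11.78 and 11.82 in A+/G+ and 8.83, 8.46 and 7.87 in A-/G+. All 5 were chosen for this profile, so their values are a description, and of the 2 probes of Ntsr2 the more alike is given.

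**Figure D2:**
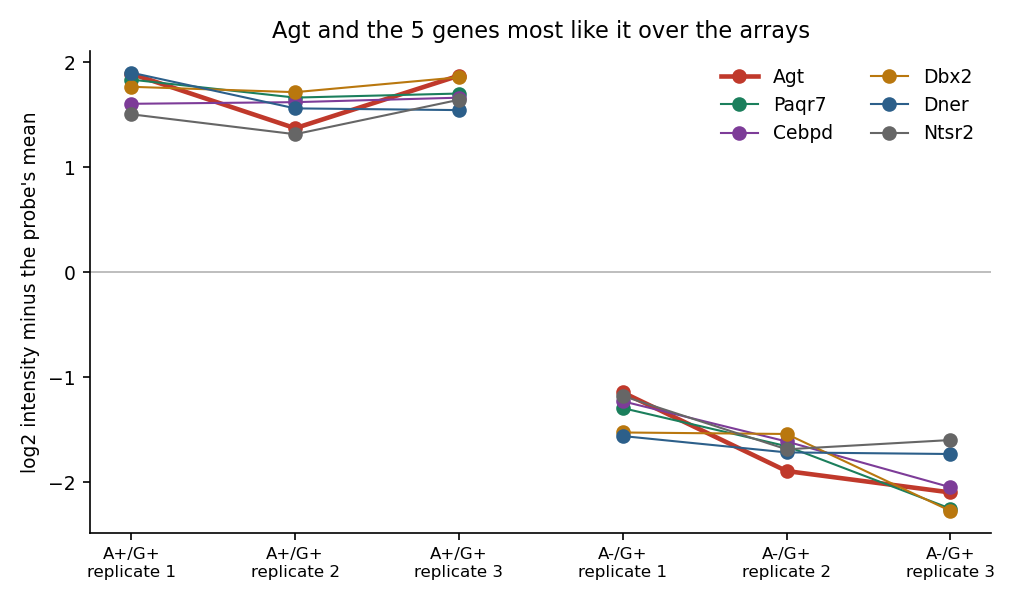
Log2 intensity minus each probe's own mean over the 6 arrays, for Agt (thick line) and the 5 genes with the smallest root mean square difference from it. Lines join arrays of 1 fraction and imply no order of the replicates. All 6 genes lie above 0 on the 3 A+/G+ arrays and below 0 on the 3 A-/G+ arrays.

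Of the enzymes, Ren1, which encodes renin, did not rise well above background on any of the 6 arrays. Its log2 intensity was 2.50, 2.05 and 2.92 in A+/G+ and 2.56, 2.10 and 2.66 in A-/G+, so these values are at the background of the arrays and have no measured difference. The probe of Ren2, a near-identical copy of Ren1 that was named after its values were seen, was bright enough to count as well above background on 1 A+/G+ array and on 0 A-/G+ arrays. Transcripts of either gene may bind either probe.

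Ace, which encodes angiotensin-converting enzyme, did not separate the fractions. Its log2 intensity was 6.01, 6.11 and 5.81 in A+/G+ and 5.57, 5.48 and 7.10 in A-/G+, and A-/G+ replicate 1 was not well above background. A-/G+ replicate 3 was the highest array of all, and the other A-/G+ arrays were the lowest. The difference of means was -0.07 (95% interval -1.31 to 1.17, adjusted p = 0.94 by limma), which leaves differences of more than 2-fold in either direction within the interval. Without A-/G+ replicate 3 it was 0.45 (adjusted p = 0.0839 by limma), higher in A+/G+.

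Ace is a known product of endothelium and choroid plexus, and markers of both were high in the same array. Each of the 10 endothelial markers was higher in A-/G+ replicate 3 than in the other A-/G+ arrays, with a log2 summed intensity of 13.03 there and of 10.69 and 10.91 in replicates 1 and 2. On the A+/G+ arrays this sum lay between 12.98 and 13.56. Of 7 choroid plexus markers, 6 were higher in A-/G+ replicate 3 than on any other array, the exception being Ttr. The log2 summed intensity of the 7 was 15.72 in A-/G+ replicate 3, and 15.79 and 14.52 in replicates 1 and 2. On the A+/G+ arrays it lay between 14.60 and 15.26. Folr1, a folate receptor of choroid plexus epithelium, was at 12.46 in A-/G+ replicate 3 and between 9.86 and 11.35 on the other arrays. A-/G+ replicate 3 was also above the other A-/G+ arrays for 7 of 10 markers of pericytes and smooth muscle and 6 of 8 of neurons. The same held for 4 of 6 of the granule neuron lineage and 4 of 8 of microglia. It held for 1 of 12 of mature astrocytes, 1 of 8 of Bergmann glia, 1 of 8 of meningeal fibroblasts and 0 of 6 of Purkinje cells. The part of any of these cell types in the value of Ace was not tested.

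**Figure D3:**
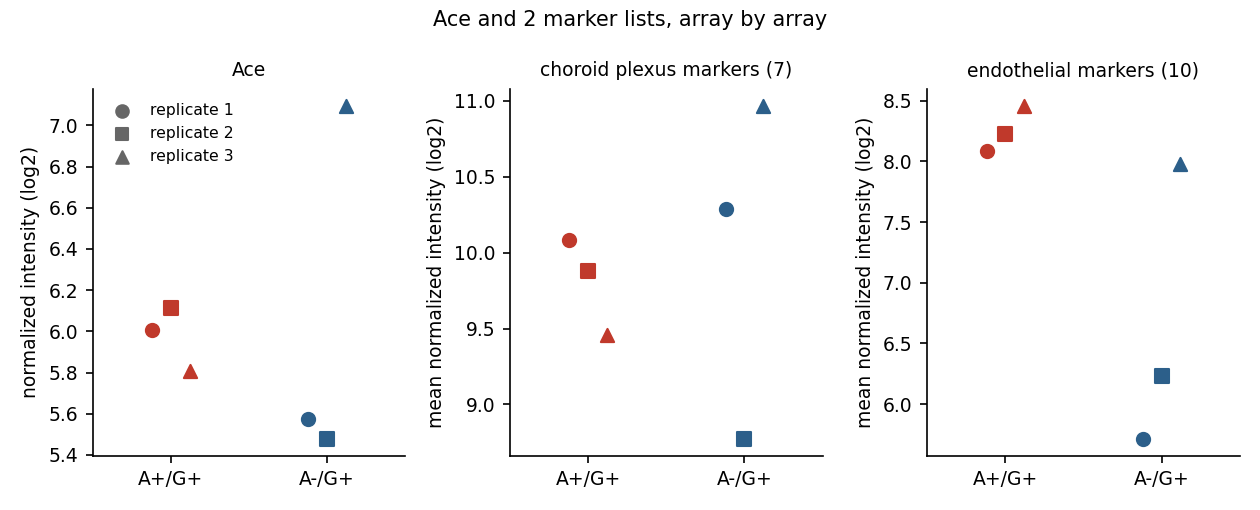
Normalized log2 intensity of Ace and mean log2 intensity of 7 choroid plexus and 10 endothelial markers, with 1 point per array. A-/G+ replicate 3 (blue triangle) is the highest array for Ace and for this mean of the choroid plexus markers, and the highest A-/G+ array for the endothelial markers. By log2 summed intensity, A-/G+ replicate 1 is the highest array for the choroid plexus markers.

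Enpep encodes aminopeptidase A, which removes the first residue of angiotensin II. Its log2 intensity was 5.07, 5.80 and 5.09 in A+/G+, all well above background, and 2.74, 4.14 and 2.87 in A-/G+, none of them well above background. The fractions did not overlap. The A+/G+ mean of Enpep was 1.34-fold above the mean of the lowest signals that counted as well above background on the A-/G+ arrays. Brighter signals did not always count: Slco1a4, at 6.05 on A-/G+ replicate 1, was not well above background, although the lowest that counted there was 5.73. No fold of Enpep between the fractions can therefore be given. The adjusted p of Enpep was 0.0607 by limma. The adjusted p was 0.0322 without A-/G+ replicate 2, the highest of its fraction, and 0.0211 without dim probes, and Enpep met both limits of a call there (limma). The filter on dim probes kept those well above background on all 3 arrays of either fraction. Enpep passed it only through A+/G+, so its call without dim probes is not a separate result. The A-/G+ median of Enpep was at background, so the ratios of medians below show only whether the limit on size was met and are not measured folds. With normexp the adjusted p was 0.0186 (limma), but the medians were 1.45-fold apart, compared with 4.66-fold in the main fit. With the 75th percentile shift it was 0.0501 (limma), with medians 1.90-fold apart. When any other array was left out it was 0.104 to 0.189 (limma), and with the methods' t-test it was 0.117.

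Anpep, which encodes aminopeptidase N and acts on the product of aminopeptidase A, is not one of the 9 genes but follows Enpep in the pathway. Its log2 intensity was 10.12, 10.34 and 9.98 in A+/G+ and 8.38, 7.71 and 7.82 in A-/G+, without overlap. The difference was 2.18 (standard error 0.21) with medians 4.91-fold apart, and it was called higher in A+/G+ (adjusted p = 0.00977 by limma).

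Both aminopeptidases are known in pericytes of brain vessels. All 10 markers of pericytes and smooth muscle had a higher mean in A+/G+, 4 of them with an adjusted p of at most 0.05 by limma, and the log2 of their sum was 13.89 to 14.12 in A+/G+ and 11.14 to 11.75 in A-/G+. Myh11, a myosin of smooth muscle, was well above background on none of the arrays. Of all probes, 4.65% were higher in A+/G+ by adjusted p alone. All 8 markers of meningeal fibroblasts were also higher in A+/G+, 4 with an adjusted p of at most 0.05 by limma, with log2 sums of 16.37 to 16.64 and 13.82 to 15.35. The part of these cells in the values of Enpep and Anpep was not tested.

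Atp6ap2 encodes the prorenin receptor, which is also an accessory protein of the vacuolar proton pump. Its log2 intensity was 9.69, 9.52 and 9.50 in A+/G+ and 8.83, 9.05 and 8.81 in A-/G+. The fractions did not overlap and each varied little, and the medians were 1.62-fold apart. The difference was 0.67 (standard error 0.10, 95% interval 0.42 to 0.93, adjusted p = 0.0230 by limma), so it passed the limit on p and not the limit on size. The adjusted p rose over 0.05 when any 1 A+/G+ array or A-/G+ replicate 1 was left out, to 0.0786, 0.0909 and 0.0852 for A+/G+ replicates 1, 2 and 3 and 0.0582 for A-/G+ replicate 1 (limma). It was 0.0501 with the 75th percentile shift in limma and 0.0502 with the methods' t-test.

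Among the receptors, Agtr1a, the main mouse receptor of angiotensin II, had log2 intensities of 5.63, 6.01 and 5.47 in A+/G+ and 4.87, 5.79 and 5.33 in A-/G+. It was well above background on all arrays but A-/G+ replicate 1, the dimmest array. The fractions overlapped, and the difference was 0.37 (95% interval -0.36 to 1.11, adjusted p = 0.522 by limma). Agtr1b, its second copy, lay between 1.82 and 1.84 on all 6 arrays and was well above background on none.

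Agtr2, whose product often opposes that of Agtr1a, had log2 intensities of 4.10, 5.0 and 4.06 in A+/G+, all well above background. The A-/G+ values were 2.15, 3.03 and 1.92, none well above background. The fractions did not overlap and the adjusted p was 0.0504 by limma, just over the limit. On the dimmer A-/G+ arrays the lowest signals that counted as well above background had a mean of 4.90, higher than the A+/G+ mean of 4.39, so that no fold can be given. The adjusted p was 0.0493 in the authors' log2 table, where Agtr2 met both limits of a call, and 0.0171 without dim probes (limma). It was 0.121 with the 75th percentile shift, 0.146 with normexp and 0.0511 to 0.137 with 1 array left out (limma), and 0.103 with the methods' t-test. The filter on dim probes kept Agtr2 only through A+/G+, so the lower adjusted p without dim probes is not a separate result.

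Mas1 encodes the receptor for a heptapeptide made from angiotensins. Its 2 probes, chr17:13033943-13034002 and chr17:13033918-13033977 on the minus strand of mm9, share 35 bases. The first gave 3.09, 2.62 and 2.16 in A+/G+ and 4.09, 2.47 and 2.13 in A-/G+, and the second lay between 1.99 and 2.06. None of these values was well above background.

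Other genes of the system were read from 3 lists with 36 genes, each by its brightest probe. Of these, 3 were called higher in A+/G+ (Anpep, Cebpb and Cebpd) and 0 were called in the other direction, where 3 had an unadjusted p under 0.05 by limma and the methods' t-test also called 0. Of all probes, 1.53% and 0.399% were called in these directions. By adjusted p alone, 5 of the 36 were higher in A+/G+ and 2 lower, as were 4.65% and 4.64% of all probes, respectively. The median difference over the 36 genes was 0.08 on the log2 scale, and over all probes it was -0.04. The 36 include 6 genes not well above background on any array. Without A-/G+ replicate 1 the count called higher in A+/G+ was 5, with Mme and Mrgprd added. Scaled to the 75th percentile, the adjusted p of 4 genes that had passed rose over the limit, to 0.0501 for Rnpep and Thop1, 0.136 for Agtrap and 0.0553 for Stat3 (limma).

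Of 17 further peptidases, 10 had a signal well above background on all arrays, and 1 was called, Anpep. The enzymes Rnpep and Thop1 were higher in A-/G+ by adjusted p, with medians under 4-fold apart. Rnpep, which encodes aminopeptidase B, had log2 intensities of 10.39, 10.39 and 10.60 in A+/G+ and 11.33, 11.38 and 11.30 in A-/G+ (difference -0.88, adjusted p = 0.00835 by limma). Thop1, which encodes thimet oligopeptidase, a source of the Mas1 ligand, was at 9.32, 9.32 and 9.52 and at 10.03, 10.13 and 10.39, respectively (difference -0.80, adjusted p = 0.0262 by limma). The fractions did not overlap for either gene. Without A+/G+ replicate 1, 2 or 3 or A-/G+ replicate 2 the adjusted p of Thop1 was 0.101, 0.110, 0.0770 and 0.0678 (limma). The probes of Prcp, a carboxypeptidase that acts on angiotensin II and was named after its values were seen, disagreed: the brightest gave a difference of 1.13 (adjusted p = 0.102 by limma), and another gave -1.93 (adjusted p = 0.0146 by limma). The remaining Prcp probe, well above background on 1 A-/G+ array only, gave 0.95 (adjusted p = 0.588 by limma).

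Of 9 genes for partners of angiotensin receptors, 8 had a signal well above background on all arrays and 0 were called in either direction by limma or by the methods' t-test, with an unadjusted p under 0.05 by limma in 5. Agtrap, which encodes a protein that binds the product of Agtr1a and promotes its internalization, had log2 intensities of 7.28, 7.39 and 7.26 in A+/G+ and 6.81, 6.90 and 6.91 in A-/G+. The difference was 0.43 (adjusted p = 0.0234 by limma), with medians 1.30-fold apart. Its adjusted p was 0.0594 to 0.0902 by limma without A+/G+ replicate 1, 2 or 3 or A-/G+ replicate 2. Arrb1, which encodes a beta-arrestin, differed by 0.60 (adjusted p = 0.0752 by limma, and 0.0335 without A-/G+ replicate 3). Mrgprd, which encodes a receptor for an angiotensin-derived peptide, reached a signal well above background on 2 A+/G+ arrays and on 0 A-/G+ arrays (adjusted p = 0.0597 by limma, and 0.0420 without A-/G+ replicate 1).

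**Figure D4:**
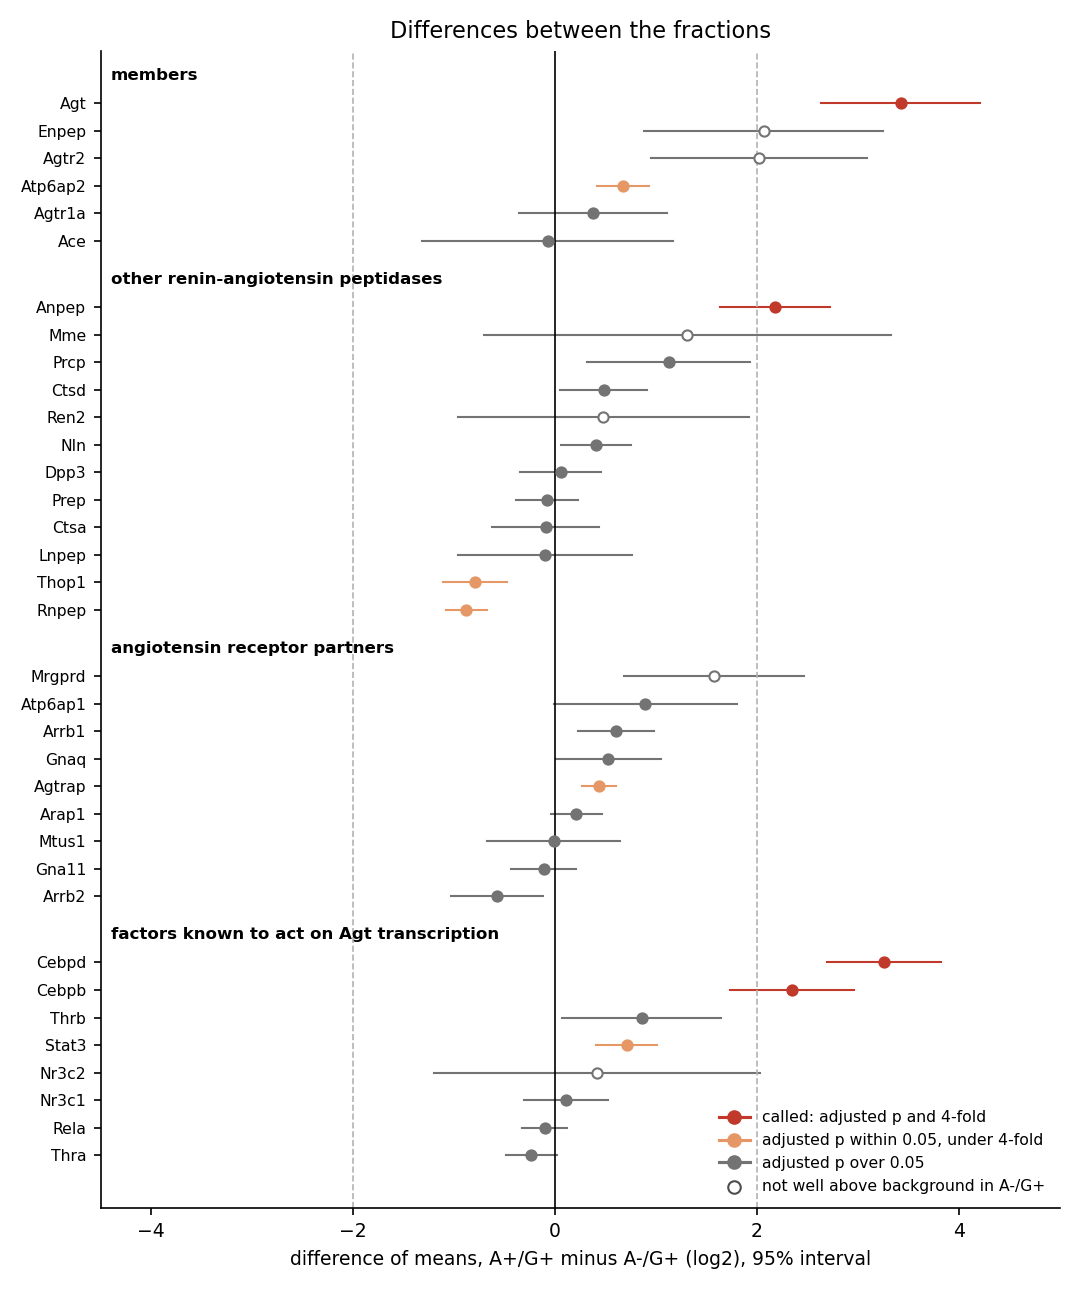
Difference of mean log2 intensity between the fractions, A+/G+ minus A-/G+, with the 95% interval from limma, for the members and the other pathway genes that were well above background on at least 1 array, with 1 gene left out. Dashed lines mark a 4-fold difference, and open points lacked a signal well above background in A-/G+, so their distance from 0 is not a measured fold. Agt, Anpep, Cebpd and Cebpb were called.

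Of 10 factors known to act on Agt transcription, 2 were called higher in A+/G+, compared with 1.53% of all probes, and both belong to the C/EBP family. The list was chosen with earlier results of these data known. Cebpd had log2 intensities of 11.56, 11.57 and 11.61 in A+/G+ and 8.72, 8.34 and 7.90 in A-/G+. The difference was 3.26 (standard error 0.22, adjusted p = 0.00471 by limma), with medians 9.41-fold apart. Cebpb was at 9.65, 9.74 and 9.92 and at 7.72, 7.63 and 6.93, respectively, with a difference of 2.35 (standard error 0.24, adjusted p = 0.0106 by limma) and medians 4.33-fold apart. Neither gene overlapped between the fractions. Without A+/G+ replicate 2 or 3 the adjusted p of Cebpb was 0.0554 and 0.0571 (limma), and with normexp background correction its medians were 3.44-fold apart, under the limit.

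Stat3, which encodes a transcription factor of cytokine signaling, had log2 intensities of 11.07, 11.06 and 11.09 in A+/G+ and 10.33, 10.17 and 10.58 in A-/G+. The difference was 0.71 (adjusted p = 0.0300 by limma), under the limit on size, and a dimmer probe of Stat3 gave 0.22 (adjusted p = 0.555 by limma). Without A-/G+ replicate 3 its adjusted p was 0.0101, and without any other array it was 0.0540 to 0.119 (limma). Nr3c1, which encodes the glucocorticoid receptor and was named after its values were seen, is in the same list, and its brightest probe differed by 0.11 (95% interval -0.31 to 0.53).

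The bases before the start of Agt are shown because this gene had the clearest difference and factors acting on it were measured with it. The sequence is from RefSeq on GRCm38.p6, chr8:124569707-124569956, minus strand, and ends at the base before the transcript start.
Agt upstream bases: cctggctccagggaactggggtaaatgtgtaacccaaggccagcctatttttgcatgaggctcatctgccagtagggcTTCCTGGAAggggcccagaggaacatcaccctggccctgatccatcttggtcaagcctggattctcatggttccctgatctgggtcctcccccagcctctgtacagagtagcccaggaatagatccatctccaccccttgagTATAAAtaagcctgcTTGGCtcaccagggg
Capitals mark matches to the motifs searched. A STAT motif (TTCNNNGAA, both strands) begins 172 bases before the start, a TATA box (TATAAA, this strand only) 30 bases before it and an NFI half-site (TTGGC, both strands) 15 bases before it. Among 32851 RefSeq promoters, the 250 bases before the start held these motifs in 7.02%, 7.59% and 41.5%, respectively. The letters of the C/EBP core (TTGCNNAA, both strands, in 9.56% of promoters) and of the glucocorticoid receptor half-site (TGTTCT, both strands, in 16.1%) are not in this window of Agt. Promoters of 8 of the 9 genes were in the table, the exception being Agtr1a, and the TATA box was also found for Ren1 and Agtr1b, the STAT motif for Enpep, the C/EBP core for Enpep, the glucocorticoid receptor half-site for Atp6ap2 and the NFI half-site for Ace, Atp6ap2, Enpep, Mas1 and Ren1.

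Markers of further cell types were read in the same way. The share of all probes with an adjusted p of at most 0.05 by limma was 4.64% toward A-/G+ and 4.65% toward A+/G+. All 8 Bergmann glia markers had a higher mean in A-/G+, each with an adjusted p of at most 0.05 by limma, and the log2 sums were 14.50 to 15.01 there and 12.83 to 12.99 in A+/G+. Of 6 Purkinje cell markers, 5 were higher in A+/G+ and 4 had an adjusted p of at most 0.05 by limma, with log2 sums of 12.27 to 13.73 and 10.63 to 10.97, although Ppp1r17 was well above background on none of the arrays. Of 10 endothelial markers, all were higher in A+/G+ and 1 had an adjusted p of at most 0.05 by limma. Of 8 neuronal markers, 6 had a higher mean in A+/G+ and 0 had an adjusted p of at most 0.05 by limma or the methods' t-test, with an unadjusted p under 0.05 by limma in 3. The granule neuron lineage (4 of 6 higher in A+/G+), microglia (4 of 8, with Ptprc well above background on none of the arrays) and choroid plexus (2 of 7) showed no common direction. At an adjusted p of at most 0.05 by limma, 1 granule neuron marker was higher in A-/G+ and 1 microglia marker was higher in A+/G+. No other marker of these lists passed that limit. Purkinje cell, pericyte and fibroblast markers had their higher values in the same fraction as Agtr2, Enpep and Agt, and the part of these cells in those values was not tested.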

How the data were processed

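RNA of 6 samples was labeled with Cy3 and hybridized to 1-color Agilent arrays. The authors deposited the scanner output, in which Agilent Feature Extraction 10.7.3.1 gives each spot's intensity after background correction, and a quantile normalized log2 table, used here as an alternative. Intensities were taken to log2 without control and outlier spots, quantile normalized, averaged per probe and compared over 55681 probes with limma 3.58.1 (R 4.3.3), with no filter on dim probes. The methods used Student's test with the same limits. Genes with several probes are given by the brightest, taken over all arrays. Named are all members, pathway genes that were called or had the 3 lowest adjusted p-values of their list, the genes of the sorted antigens and the 5 genes most like Agt. Members and lists were chosen with earlier results of these data known. All 9 symbols were found in RefSeq (GRCm38.p6). The fit was tested on simulated data. Values of 1 listed peptidase are not reported here. The labels call the samples biological replicates. Exact tests used scipy 1.17.1. The number of arrays limits the precision.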

Additional observations from a re-analysis of the deposited data

How the results depend on the processing

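Alternatives were the 75th percentile shift, normexp, the authors' log2 table, dim probes left out, limma with a trended robust variance, the methods' t-test, outlier spots kept, the replicate block, each array left out, and adjusted p alone. The filter on dim probes kept those well above background on all 3 arrays of either fraction. Enpep and Agtr2 passed it only through A+/G+. Among the 10 member probes, 2 were called higher in A+/G+ in the authors' table (Agt and Agtr2), 2 without dim probes (Agt and Enpep) and 2 by adjusted p alone (Agt and Atp6ap2), and leaving out 1 array gave 1 to 2, with 2 (Agt and Enpep) without A-/G+ replicate 2. Leaving out 1 array gave 340 to 1458 and 77 to 490 of all probes higher in A+/G+ and A-/G+, and 2 to 5 pathway genes higher in A+/G+. Of all probes, 234 and 48 were called with normexp, 487 and 121 with the methods' t-test and 2589 and 2583 by adjusted p alone, and the 75th percentile shift called 938 higher in A-/G+ and moved the median difference of all probes from -0.04 to -1.02. Agt kept a difference of 2.63 (medians 7.08-fold apart) with normexp. The adjusted p of Thop1 was 0.0586 and that of Stat3 0.0638 with the methods' t-test, and that of Agtrap 0.119 with the trended variance in limma. By adjusted p alone, 5 and 2 pathway genes were higher in A+/G+ and A-/G+. Ace changed direction without A-/G+ replicate 3 (0.45) and without A+/G+ replicate 3 (0.01), and leaving out 1 array gave -0.36 to 0.45. The cause of these changes was not tested. Probes not well above background on any array were given no difference of their own, but the medians over several probes include them. Agt has 1 probe, so a mean over probes gives the same value.

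Replicate numbers are shared by the fractions, and same-numbered arrays correlated in their deviations by 0.088, 0.056 and 0.006. Arrays of different numbers were not set beside them, so these values cannot settle whether the numbers pair the arrays. With the replicate block, the difference of Agt was 3.42 with an adjusted p of 0.0650 by limma, and 0 member probes, 0 pathway genes and 0 of all probes were called in either direction, although 11671 probes had an unadjusted p under 0.05 by limma. The dimmer A-/G+ arrays limit what can be read of Enpep, Agtr2, Ren1, Agtr1b and Mas1.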
